A study of Homo sapiens with 8 samples.

Results

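The chromosome 19 zinc finger genes are the protein-coding genes of human chromosome 19 whose symbols start with ZNF. They were taken from a table of 25945 genes by name, gene type and chromosome, with at least 80 reads summed over all 8 libraries. Of 230 such genes in the table, 197 met the minimum and 33 fell below it. The member nearest the minimum was ZNF223 with 80 reads, and the nearest gene outside it was ZNF671 with 57. The members held a median of 1648 reads over the 8 libraries and together took 0.206% of all counts. The rule reads only names, places and read totals, and it was proposed with earlier results of these data known.

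Zinc finger proteins of this family bind DNA through rows of short repeats, each folded around a zinc ion. Many carry a KRAB domain at the start of the protein, which recruits the corepressor TRIM28 and through it the histone methyltransferase SETDB1 and heterochromatin proteins. The family is known for silencing transposable elements, and its genes lie in tandem clusters along chromosome 19 that arose by repeated duplication.

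The study silenced BARD1, whose protein pairs with BRCA1 as a ubiquitin ligase in DNA repair, in the human pancreatic cancer cell line MiaPaCa-2. Cells received BARD1 siRNA (4 libraries) or a scrambled control siRNA (4 libraries) for 48 h, and polyadenylated RNA was sequenced. Each group is 1 cell line under transient transfection. The labels number the replicates without saying that they were cultured apart, so the p-values cover the spread among these libraries, possibly a technical one. Library totals ran from 24458665 to 36212716 counts.

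BARD1 itself stood at 3.56, 2.24, 2.45 and 7.59 CPM (counts in every 1000000, scaled for library composition) in BARD1 siRNA libraries 1 to 4, against 26.9, 27.98, 26.9 and 20.8 CPM in control siRNA libraries 1 to 4. The groups did not overlap, and the level with BARD1 siRNA was highest in library 4 (log2 fold change -2.69 with an SE of 0.36, adjusted p = 0.00397 by edgeR; exact permutation test of the 8 log2 values, two-sided, p = 0.0286, the smallest that 4 against 4 allow). The libraries numbered 4 stood apart in both groups: 22.1% of all genes were higher and 24.1% lower in them than in the others (edgeR with a term for siRNA), and mitochondrial genes took 4.44% of counts with BARD1 siRNA and 3.26% with control siRNA there, against 0.695% to 2.02% elsewhere. Keratin genes of epithelial cells were abundant, with KRT8 at 1801 to 3343 CPM with BARD1 siRNA and 1540 to 2296 CPM with control siRNA, while EPCAM and CDH1 were at or near 0 in every library. The mesenchymal marker VIM was abundant too, at 1809 to 2043 CPM with BARD1 siRNA and 1632 to 1769 CPM with control siRNA.

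The members' sequences were described without a test, since zinc fingers and their linkers largely follow from the naming of these genes. For 196 of the 197 the coding sequence of GENCODE release 29 (GRCh38) was found. Translated, these held 0 to 32 zinc fingers of the classical spacing, with a median of 12.5, in proteins of 137 to 1191 residues. The conserved core of the KRAB domain, searched at 11 fixed positions with up to 4 mismatches, was found in 166 members (84.7%), 158 of them with at most 1 mismatch, against 0.974% of the other genes tested with a coding sequence. Among zinc finger genes named ZNF on other chromosomes, 93 of 215 (43.3%) held it. Neighbouring fingers are joined by a conserved linker, and 14 bases that encode most of it occurred in the coding sequence of 107 members (54.6%), against 0.571% of the other genes tested. The first copy in each of 6 genes is shown, 5′ to 3′ on the coding strand, because the repeat makes stretches of these transcripts alike. The 14 bases are in capitals.
ZNF91 coding sequence, 15 copies: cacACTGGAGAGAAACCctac
ZNF791 coding sequence, 6 copies: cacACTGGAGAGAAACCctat
ZNF136 coding sequence, 4 copies: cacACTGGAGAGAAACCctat
ZNF611 coding sequence, 4 copies: catACTGGAGAGAAACCttac
ZNF121 coding sequence, 3 copies: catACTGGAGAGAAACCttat
ZNF227 coding sequence, 3 copies: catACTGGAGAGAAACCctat
ZNF227, which did not pass the test for a change, held the same 14 bases as the other 5 genes, which rose with BARD1 siRNA.

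Similarity between members limits what their counts can tell. Of 196 members, 52 had none of the 50-base windows of their transcript in a transcript of another gene, and 41 had at least 10% of windows shared. The median share over the members was 1.49% and the highest 70.9%. ZNF799 and ZNF443 had 47.7% and 40.2% of their windows in other genes, each with the other as its main partner, so their values are uncertain. The sources used here do not say whether reads were counted by strand, and reads of a gene and an overlapping gene cannot then be told apart. The spans of 114 of the 195 members tested overlapped another listed gene, and those of 85 overlapped one on the other strand. Spans include introns, so an overlap of spans need not be one of exons.

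As a group, the chromosome 19 zinc finger genes were higher with BARD1 siRNA. After a filter on low counts (filterByExpr), 195 members were tested among 14528 genes. ZNF563 with 108 reads and ZNF223 did not pass the filter. Of the 195, 13 rose and 0 fell (edgeR quasi-likelihood test, adjusted p under 0.05), or 6.67% higher. Over all genes tested, 1.82% were higher and 3.22% lower. With upper-quartile scaling 16 members rose and 0 fell (2.84% and 3.24% of all genes tested; 65 members higher and 0 lower at an unadjusted p under 0.05), and of all calls 46.8% were higher, against 36.2% with the TMM scaling used here. At an unadjusted p under 0.05, 62 members were higher and 2 lower, against 9.08% and 9.82% of all genes tested. DESeq2 called 41 members higher and 0 lower, against 4.76% and 5.9% of all genes tested. The log2 fold change was above 0 in 165 members (84.6%) and in 51.6% of all genes tested. The members' median log2 fold change was 0.31, with the middle 50% of the members between 0.14 and 0.52, and the median of all genes tested was 0.01. The range over members was -0.41 to 1.28. In bulk RNA, a change in RNA per cell and a change in the share of cells with more of it cannot be told apart.

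**Figure D1:**
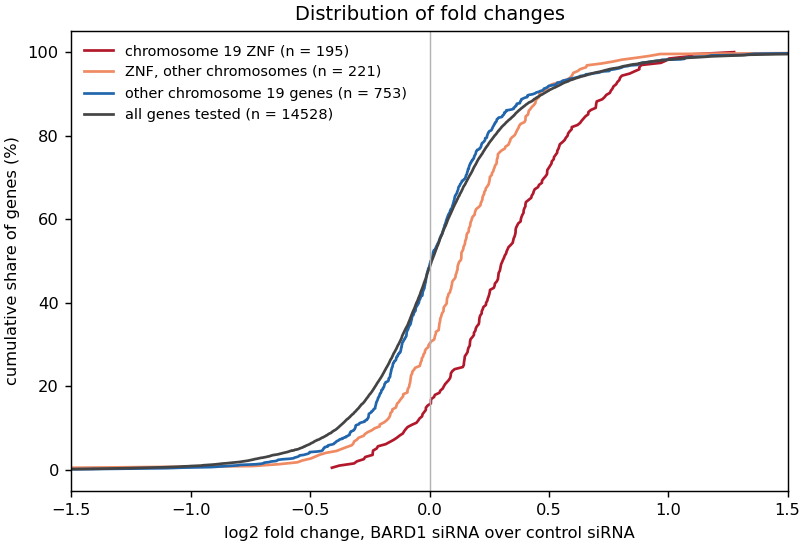
Cumulative share of genes (y axis, percent) at or below each log2 fold change of BARD1 siRNA over control siRNA (x axis) for 4 gene groups. The curve of the 195 chromosome 19 ZNF genes lies mostly to the right of the others, with 84.6% above 0. ZNF genes on other chromosomes come next, with 70.1% above 0. The curves of other chromosome 19 genes and of all genes cross 0 near their middle.

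The shift was present in every pair of libraries with the same number. The members' summed level was 2219, 2224, 2324 and 2241 CPM in BARD1 siRNA libraries 1 to 4, against 1799, 1840, 1813 and 1965 CPM in control siRNA libraries 1 to 4. All BARD1 siRNA libraries were above all control siRNA libraries, and control library 4 was the highest of its group. By pair number, 162, 145, 153 and 143 of 195 members were higher with BARD1 siRNA, or 83.1%, 74.4%, 78.5% and 73.3%. The same shares over all genes tested were 50.4%, 49.8%, 50.2% and 48.9%. The members' median log2 difference was 0.34, 0.30, 0.32 and 0.22 in pairs 1 to 4, smallest in the pair numbered 4. In all 4 pairs, 94 members (48.2%) were higher and 5 were lower (ZNF227, ZNF235, ZNF430, ZNF524 and ZNF587B), against 18.98% and 20.9% of all genes. The 4 BARD1 siRNA values lay above the 4 control values in 46 members (23.6%, against 5.46% of all genes tested), and below them in 1 member, ZNF227 (7.52% of all genes tested).

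**Figure D2:**
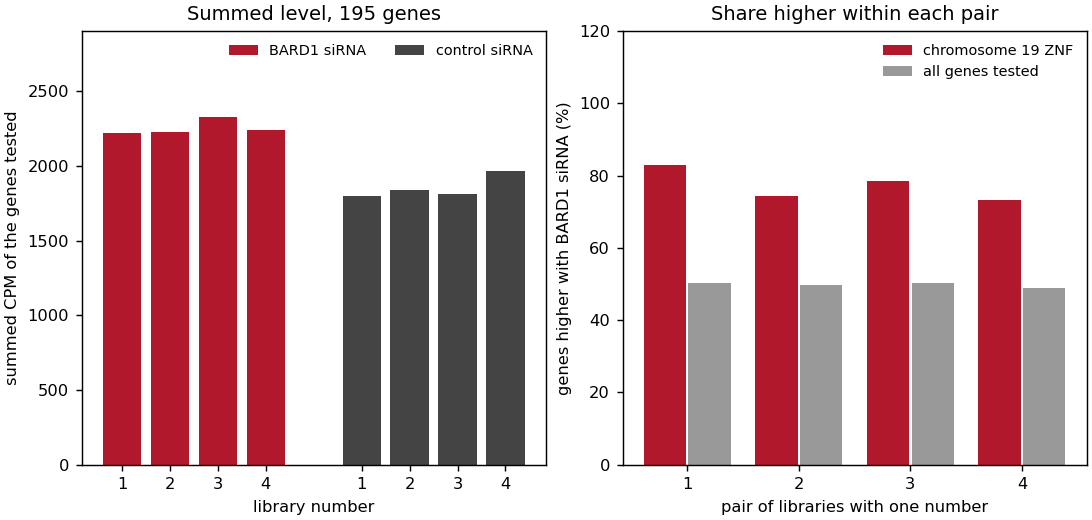
Left, summed CPM of the 195 tested genes (y axis) in each library (x axis, library number), BARD1 siRNA red and control siRNA grey; the BARD1 siRNA bars stand at 2219 to 2324 and the control bars at 1799 to 1965. Right, percent of genes higher with BARD1 siRNA within each numbered pair, which is 73.3% to 83.1% for chromosome 19 ZNF genes (red) and 48.9% to 50.4% for all genes tested (grey).

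Calls of single members were fewer and less stable than this shift. In fits that left out 1 library, edgeR called 0 members higher without BARD1 siRNA library 1 or without control siRNA library 1, 2 or 3 (50 to 52 higher at an unadjusted p under 0.05). Of all genes, 0.276%, 0.26%, 0.274% and 0.242% were higher in these 4 fits. Without BARD1 siRNA library 2 it called 2 members higher (0.35% of all genes), and without BARD1 siRNA library 3 it called 1 (0.289% of all genes). Without BARD1 siRNA library 4 it called 36 higher and 1 lower, ZNF227, against 8.4% and 8.53% of all genes. Without control siRNA library 4 it called 18 higher, of which 8 were among the 13, and 0 lower (73 and 0 at an unadjusted p under 0.05), against 2.14% and 3.71% of all genes. The median log2 fold change stayed between 0.27 and 0.37 in these 8 fits. With the replicate number as a block, 60 members rose (30.8%, against 11.0% of all genes tested) and 0 fell (12.6% of all genes tested), with 88 higher and 3 lower at an unadjusted p under 0.05 (16.9% and 18.2% of all genes tested). Without both libraries numbered 4, 68 of 194 members rose (15.0% of all genes) and 2 fell, ZNF227 and ZNF580 (15.4% of all genes). All 13 members were called in both of these fits. In the authors' deposited table, 36 of 188 members with an adjusted p were higher at 0.05 and 0 lower, against 4.24% and 5.37% of the genes with a value there.

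Among the members that rose, the best known is ZNF274 (ENSG00000171606, GRCh37 chromosome 19, 58694396 to 58724928). Its protein binds the end of the coding region of other zinc finger genes and recruits SETDB1 there. It stood at 56.9, 56.4, 70.8 and 40.5 CPM in BARD1 siRNA libraries 1 to 4, against 36.8, 36.7, 38.9 and 31.99 CPM in control siRNA libraries 1 to 4 (log2 fold change 0.64 with an SE of 0.15, adjusted p = 0.0437 by edgeR). Library 3 was the highest and library 4 the lowest of the BARD1 siRNA group, and the groups did not overlap. ZNF274 was also lower in the libraries numbered 4 than in the others (log2 difference -0.41, edgeR adjusted p = 0.00310).

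ZNF91 (ENSG00000167232, GRCh37 chromosome 19, 23487793 to 23578362), a KRAB zinc finger gene whose protein is known to repress SVA retrotransposons, holds 32 fingers, the most of any member. Its level was 32.7, 36.02, 31.7 and 31.4 CPM in BARD1 siRNA libraries 1 to 4, against 25.6, 27.02, 24.5 and 23.2 CPM in control siRNA libraries 1 to 4 (log2 fold change 0.39 with an SE of 0.09, adjusted p = 0.0373 by edgeR). The rise was modest, 1.31-fold, and the lowest BARD1 siRNA library was above the highest control library.

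The smallest p among members was that of ZNF121 (ENSG00000197961, GRCh37 chromosome 19, 9671029 to 9695209), a gene with 9 fingers and no KRAB pattern. It was measured at 52.2, 44.7, 60.9 and 51.4 CPM in BARD1 siRNA libraries 1 to 4, against 29.3, 32.1, 32.8 and 37.7 CPM in control siRNA libraries 1 to 4 (log2 fold change 0.67 with an SE of 0.11, adjusted p = 0.0131 by edgeR). Control library 4 was the highest of its group and still below each BARD1 siRNA library. ZNF136 (GRCh37 chromosome 19, 12273879 to 12300064), which encodes a KRAB protein with 13 fingers, was at 7.16, 6.76, 8.22 and 7.25 CPM in BARD1 siRNA libraries 1 to 4 and 3.25, 4.38, 3.99 and 4.25 CPM in control siRNA libraries 1 to 4 (log2 fold change 0.89 with an SE of 0.16, adjusted p = 0.0170 by edgeR). No values of the groups overlapped, and the ratio of the means was 1.85.

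ZNF850 (GRCh37 chromosome 19, 37205285 to 37263727), with 29 fingers, had the highest fold among the 13. Its values were 17.7, 17.2, 23.2 and 9.39 CPM in BARD1 siRNA libraries 1 to 4, against 8.07, 8.23, 7.80 and 9.83 CPM in control siRNA libraries 1 to 4 (log2 fold change 0.99 with an SE of 0.24, adjusted p = 0.0470 by edgeR). It was higher in pairs 1 to 3, and in pair 4 the BARD1 siRNA library was slightly below the control library. ZNF613 (GRCh37 chromosome 19, 52430400 to 52452012), a KRAB gene with 12 fingers, was at 5.16, 6.27, 6.60 and 5.73 CPM in BARD1 siRNA libraries 1 to 4, against 3.58, 4.01, 3.43 and 3.06 CPM in control siRNA libraries 1 to 4 (log2 fold change 0.76 with an SE of 0.17, adjusted p = 0.0371 by edgeR). Every BARD1 siRNA value exceeded every control value.

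The other 7 members that rose had folds of 1.29 in ZNF260 to 1.54 in ZNF611, and in each the groups did not overlap. ZNF611 averaged 12.99 ± 1.16 CPM with BARD1 siRNA and 8.46 ± 0.737 CPM with control siRNA (SD, n = 4 each), with 13.6% of its windows shared with other genes, most with ZNF600. ZNF780B, a KRAB gene with 21 fingers, averaged 22.6 ± 1.97 CPM with BARD1 siRNA and 15.3 ± 1.76 CPM with control siRNA (SD, n = 4 each). ZNF260, which has 13 fingers and no KRAB pattern, averaged 37.7 ± 1.81 CPM with BARD1 siRNA and 29.3 ± 1.26 CPM with control siRNA (SD, n = 4 each). These 3 genes had edgeR adjusted p of 0.0279, 0.0280 and 0.0308. ZNF766 averaged 21.9 ± 1.29 CPM with BARD1 siRNA and 15.4 ± 1.68 CPM with control siRNA (SD, n = 4 each). ZNF791 averaged 25.3 ± 3.68 CPM with BARD1 siRNA and 17.5 ± 0.928 CPM with control siRNA (SD, n = 4 each), and its BARD1 siRNA library 4 was the lowest of the group at 19.99 CPM. ZNF440 averaged 20.1 ± 2.17 CPM with BARD1 siRNA and 13.95 ± 1.47 CPM with control siRNA (SD, n = 4 each), and ZNF329, without a KRAB pattern, 15.3 ± 0.894 CPM with BARD1 siRNA and 10.1 ± 1.73 CPM with control siRNA (SD, n = 4 each). Their edgeR adjusted p ran from 0.0342 in ZNF766 to 0.0465 in ZNF329. Each of the 13 members lost its call without 4 to 7 of the 8 libraries in turn, fewest in ZNF121, with edgeR adjusted p up to 0.147.

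**Figure D3:**
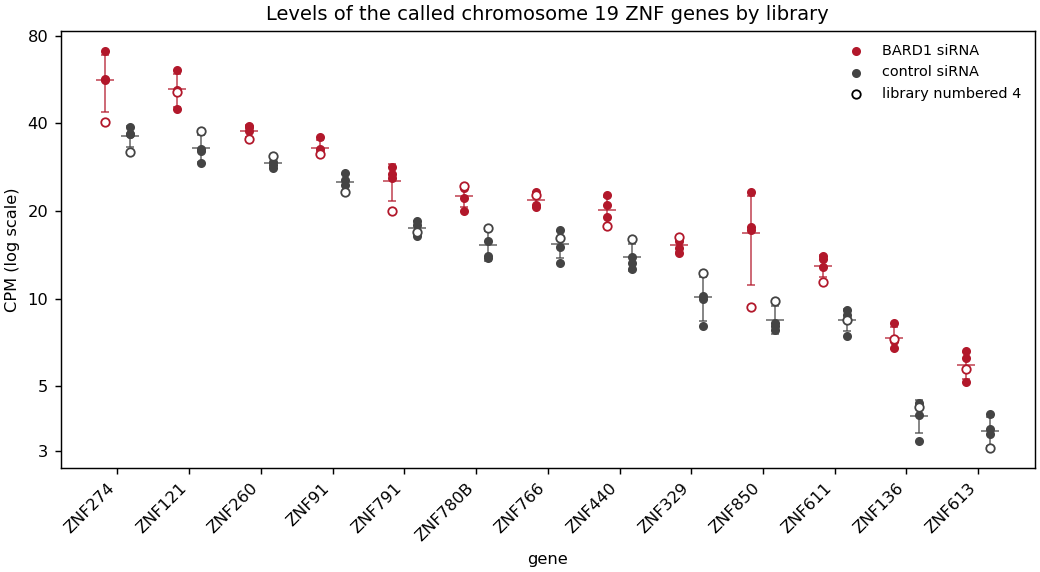
CPM on a log axis (y) for the 13 genes past the threshold (x, by falling mean level) in BARD1 siRNA libraries (red) and control siRNA libraries (grey); points are libraries, open points those numbered 4, bars mean ± SD of 4 libraries. Red points lie above grey points in 12 genes, and in ZNF850 the open red point at 9.39 lies below the open grey point at 9.83.

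The fit with the replicate block added members whose levels differed by number. ZNF460 was at 9.15, 10.6, 9.71 and 2.91 CPM in BARD1 siRNA libraries 1 to 4, against 5.10, 3.97, 4.50 and 1.76 CPM in control siRNA libraries 1 to 4. Both libraries numbered 4 were lowest, and within each pair the BARD1 siRNA library was higher, while the groups overlapped (log2 fold change 1.08, SE 0.42, edgeR adjusted p = 0.195 without and 5.64e-04 with the block). ZNF587, whose protein is known, with that of its near copy ZNF417, to repress HERV-K elements, averaged 27.4 ± 4.04 CPM with BARD1 siRNA and 19.4 ± 1.68 CPM with control siRNA (SD, n = 4 each), with edgeR adjusted p = 0.0564 without and 0.00106 with the block. Of its windows, 20.2% occur in other genes. ZNF550, ZNF527, ZNF429, ZNF579 and ZNF561 had log2 fold changes of 0.66, 0.76, 0.79, 0.39 and 0.38. Their edgeR adjusted p ran from 0.0554 to 0.139 without the block and from 9.54e-04 to 0.00355 with it.

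The members at the ends of the range, among those with a mean of at least 1 CPM that did not pass, were low or variable. ZNF568, a KRAB gene, was at 1.80, 1.56, 2.04 and 1.39 CPM in BARD1 siRNA libraries 1 to 4, against 1.19, 0.501, 0.597 and 0.862 CPM in control siRNA libraries 1 to 4 (log2 fold change 1.10 with an SE of 0.34, adjusted p = 0.105 by edgeR). Its BARD1 siRNA values all lay above its control values, at low levels in both groups. ZNF701 averaged 2.15 ± 0.526 CPM with BARD1 siRNA and 1.07 ± 0.386 CPM with control siRNA (SD, n = 4 each), and its adjusted p was 0.120 (edgeR). At the other end, ZNF575 averaged 0.997 ± 0.584 CPM with BARD1 siRNA and 1.32 ± 0.123 CPM with control siRNA (SD, n = 4 each) and its groups overlapped. ZNF227 was at 6.23, 6.70, 6.50 and 8.91 CPM in BARD1 siRNA libraries 1 to 4, against 9.09, 9.14, 9.09 and 9.48 CPM in control siRNA libraries 1 to 4 (log2 fold change -0.38 with an SE of 0.15, adjusted p = 0.212 by edgeR). It is the single member with all BARD1 siRNA values below all control values, and it passed the test without both libraries numbered 4 (log2 fold change -0.49, edgeR adjusted p = 0.0139). ZNF681 averaged 3.43 ± 0.325 CPM with BARD1 siRNA and 4.27 ± 1.24 CPM with control siRNA (SD, n = 4 each), a difference smaller than the SD of its control libraries.

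The members with the highest levels did not all pass the test. FPKM, the authors' value per gene length and library total, allows levels to be compared between genes. The members' median of mean FPKM was 2.01, against 6.04 over all genes tested. ZNF146, a gene of fingers without a KRAB pattern, was the highest at 37.01 ± 2.53 FPKM with BARD1 siRNA and 35.5 ± 0.823 FPKM with control siRNA (SD, n = 4 each). ZNF787 followed at 33.5 ± 3.55 FPKM with BARD1 siRNA and 32.2 ± 2.26 FPKM with control siRNA (SD, n = 4 each). Neither passed the test, with log2 fold changes of 0.06 and 0.06 (SE 0.09 and 0.12, edgeR adjusted p = 0.831 and 0.865). ZNF121 came after them, at 21.8 ± 2.87 FPKM with BARD1 siRNA and 13.7 ± 1.94 FPKM with control siRNA (SD, n = 4 each). ZNF579, ZNF580 and ZNF317 came next, at 16.9, 12.5 and 13.6 FPKM with BARD1 siRNA against 12.9, 14.1 and 11.1 FPKM with control siRNA. In ZNF580 these means differ by less than the BARD1 siRNA SD of 4.29. Of these 3, ZNF317 holds a KRAB pattern, and it passed the test with the block (edgeR adjusted p = 0.00682).

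Medians were above 0 at each level of expression. Members with a mean of up to 1, of 1 to 5, of 5 to 20 and of over 20 CPM numbered 9, 61, 102 and 23. Their median log2 fold changes were 0.60, 0.25, 0.30 and 0.32, against 0.15, 0.07, 0.00 and -0.01 over all genes in these bands. Calls were most frequent among the abundant members, with 5 of 23 above 20 CPM (2.53% of all genes there were higher and 5.28% lower) and 7 of 102 at 5 to 20 CPM (1.78% and 2.51% of all genes there). From 1 to 5 CPM 1 of 61 was called (0.934% and 0.487% of all genes there), and up to 1 CPM 0 of 9 (edgeR, 0.365% and 0.0521% of all genes there, with 1 member higher at an unadjusted p under 0.05 and 0 by DESeq2).

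Zinc finger genes on other chromosomes were set beside the members under the same minimum of 80 reads. Of 221 tested, 6 rose and 3 fell (2.71% and 1.36%, against 1.82% and 3.22% of all genes tested). With the replicate block 45 rose and 11 fell (20.4% and 4.98%, against 11.0% and 12.6% of all genes tested). Their median log2 fold change was 0.13, with 70.1% above 0. Other protein-coding genes of chromosome 19 had a median near 0. Of 753 tested, 15 rose and 17 fell (1.99% and 2.26%), with a median log2 fold change of 0.01 and 51.1% above 0. Members with the KRAB pattern had a median of 0.34 in 164 genes, and those without it 0.18 in 30. On other chromosomes the medians with and without the KRAB pattern were 0.12 in 93 genes and 0.13 in 122. These are descriptions, and the differences between the groups of genes were not tested. By number of fingers, the members' medians were 0.17 with up to 4 (10 genes), 0.28 with 5 to 9 (40 genes), 0.33 with 10 to 14 (80 genes) and 0.33 with 15 or more (64 genes).

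Medians were above 0 both with and without sequence shared with other genes or an overlap with them. In the 52 members with no shared window the median was 0.20, with 40 above 0, 2 risen and 0 fallen (edgeR, with 12 higher and 1 lower at an unadjusted p under 0.05, and 0 lower by DESeq2). In the 142 with some shared windows it was 0.35, with 124 above 0 and 11 risen. Among these, the 40 with at least 10% of windows shared had a median of 0.30, with 34 above 0 and 1 risen (2.5%). In the 81 members whose span overlapped no other listed gene the median was 0.30 and 7 rose. In the 114 with an overlap the median was 0.31 and 6 rose. Over all genes tested, 1.82% were higher and 3.22% lower, and at an unadjusted p under 0.05 (edgeR) 9.08% and 9.82%.

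**Figure D4:**
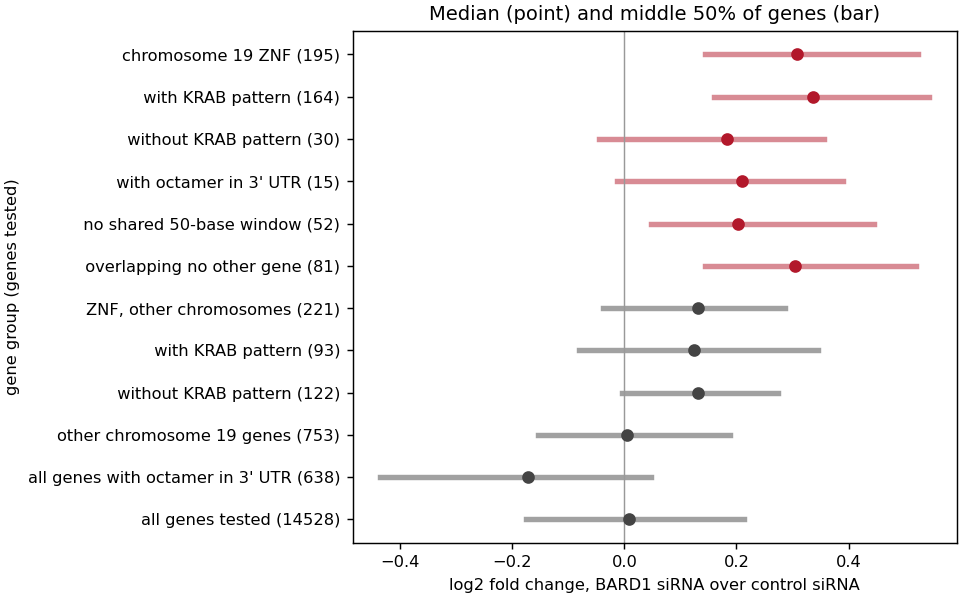
Median log2 fold change (point) and middle 50% of genes (bar) of BARD1 siRNA over control siRNA for groups of genes, with the number tested in brackets; chromosome 19 ZNF genes are red. The medians of the red groups run from 0.18 to 0.34, those of ZNF genes on other chromosomes from 0.12 to 0.13, and that of all genes is 0.01.

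Along chromosome 19 the members fell into 16 clusters when a gap of over 1000000 bases between starts began a new one, and 9 clusters with at least 5 tested members held 182 of them. The highest median was in the cluster from ZNF175 to ZNF331 (GRCh37 chromosome 19, 52074551 to 54083523), at 0.51 over 27 members. There 26 of 27 had a log2 fold change above 0, 3 rose (ZNF611, ZNF613 and ZNF766), and 13 rose with the replicate block (11.1% and 48.1%). Over all genes tested, 1.82% were higher, and 11.0% with the block. The largest cluster, from ZNF628 to ZNF446 (55987699 to 58992597), held 53 members with a median of 0.30, of which 2 rose, ZNF274 and ZNF329, and 16 with the block. The cluster from ZNF565 to ZNF573 (36673188 to 38307940) had a median of 0.35 over 25 members, with 2 risen, ZNF260 and ZNF850. On the short arm, the clusters from ZNF557 to ZNF846 (7069455 to 9903856) and from ZNF653 to ZNF791 (11594242 to 12750912) had medians of 0.33 over 13 and 0.37 over 15 tested members. The cluster from ZNF575 to ZNF296 (44029649 to 45579846) had a lower median, 0.18 over 22, and it contains ZNF227. There 0 rose by edgeR and 3 with the block (13.6%, near the 11.0% of all genes tested). Medians in the remaining 3 such clusters were 0.15, 0.19 and 0.24. The medians of all 9 were above 0, and differences between clusters were not tested.

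**Figure D5:**
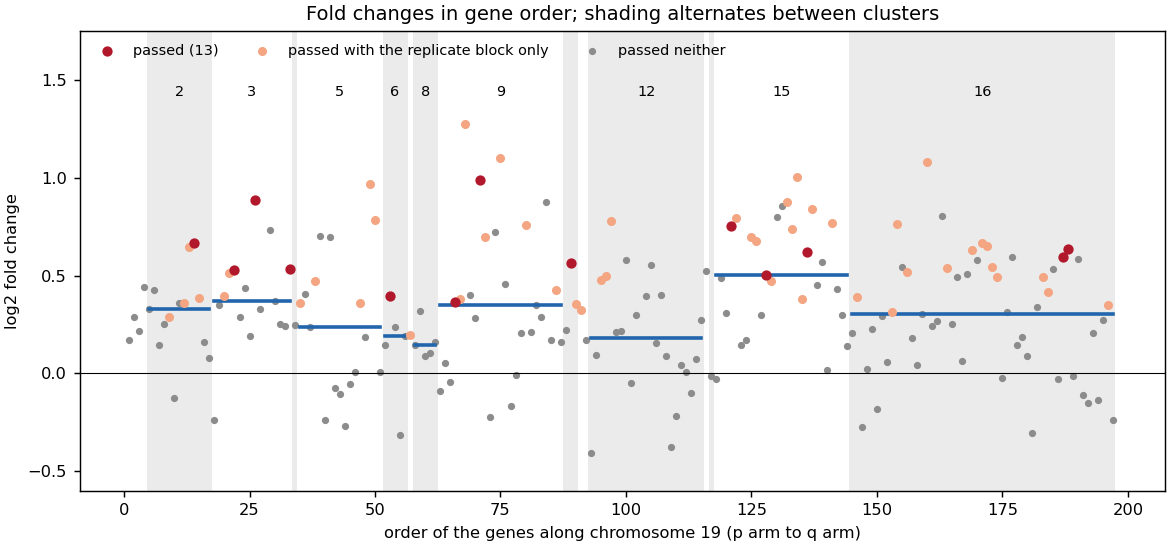
Log2 fold change of BARD1 siRNA over control siRNA (y axis) for each tested gene in its order along chromosome 19 (x axis). Shading alternates between clusters, numbers and blue lines give clusters with at least 5 tested genes and their medians, and colours mark genes that passed the test; points above 0 prevail in every such cluster, and cluster 15 has the highest median at 0.51.

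Members also differed between the libraries numbered 4 and the rest, in both directions. Against the libraries numbered 1 to 3, 35 members were higher and 15 lower in those numbered 4 (edgeR, siRNA in the model), or 17.9% and 7.69%, with a median log2 difference of 0.15 against 0.02 over all genes. Over all genes 22.1% were higher and 24.1% lower. The members were expressed at lower levels, with a median of 6.98 CPM against 19.7 CPM over all genes. In the bands up to 1, 1 to 5, 5 to 20 and over 20 CPM, the members' medians were 0.42, 0.30, 0.08 and -0.18. Those of all genes were 0.36, 0.37, 0.18 and -0.13, so the members' median was the higher only up to 1 CPM. With upper-quartile scaling 51 members were higher and 10 lower, and over all genes 4006 were higher and 2674 lower, against 3206 and 3506. The other genes of chromosome 19 were also higher in the libraries numbered 4, with a median log2 difference of 0.20. ZNF460 had a log2 difference of -1.57 (edgeR adjusted p = 8.65e-06) and so was lower in the libraries numbered 4. Without both libraries numbered 4 the members' median for BARD1 siRNA was 0.31, and in that pair alone it was 0.22.

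The octamer ATACAGAA was singled out in an earlier analysis of these data, with its results known, and it was looked up on the transcript's strand in the 3′ UTR of the members. It was found in 15 of 196 (7.65%, against 5.23% of the other genes tested), and 42 more held a heptamer of it, ATACAGA or TACAGAA (21.4%, against 16.1%). The sites of 4 members are shown because they hold the same 8 bases, in capitals, while their values lie at both ends of the group.
ZNF470 3′ UTR, 1 of 2 sites: aagaaacaatcATACAGAAtttggtacgaa
ZNF432 3′ UTR: atcattacttcATACAGAAataaaacttat
ZNF471 3′ UTR: cttcgtgaagcATACAGAAgaaaaaccttc
ZNF681 3′ UTR: aaatttcaaatATACAGAAtgtgaaaaagc
The 15 members with the octamer had a median log2 fold change of 0.21, with 11 above 0, and edgeR called 0 higher and 0 lower (2 higher and 0 lower at an unadjusted p under 0.05, the same counts as with DESeq2). Over all 638 tested genes with the octamer the median was -0.17, and 3 were higher and 122 lower (0.470% and 19.1%). Of all genes tested, 1.82% were higher and 3.22% lower by edgeR, and 9.08% and 9.82% at an unadjusted p under 0.05. ZNF470, ZNF432 and ZNF471 had log2 fold changes of 0.52, 0.70 and 0.55, and ZNF681 -0.32; these 4 were chosen after their values were seen. In the fit with the replicate block 2 of the 15 rose, ZNF470 and ZNF432 (13.3%, near the 11.0% of all genes tested). None of the 15 fell there (12.6% of all genes tested). Members with a heptamer had a median of 0.29, and the 137 with none had 0.33.

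The corepressors through which KRAB zinc finger proteins act had 1 call, a share near the background. Of 30 genes on a list of TRIM28, its partners and heterochromatin factors, all tested, 1 fell (3.33%, against 3.22% of all genes) and 0 rose (edgeR, with 2 higher and 1 lower at an unadjusted p under 0.05, and 1 higher by DESeq2). The median log2 fold change was -0.08, and with the replicate block 1 rose and 5 fell (3.33% and 16.7%, against 11.0% and 12.6% of all genes). TRIM28, itself a gene of chromosome 19, was at 712, 708, 674 and 499.9 CPM in BARD1 siRNA libraries 1 to 4, against 783, 763, 739 and 612 CPM in control siRNA libraries 1 to 4 (log2 fold change -0.16 with an SE of 0.13, adjusted p = 0.595 by edgeR, and 0.0305 when blocked by number). Its groups overlapped, and both libraries numbered 4 were the lowest of their group. SETDB1 averaged 25.5 ± 2.37 CPM with BARD1 siRNA and 27.2 ± 1.59 CPM with control siRNA (SD, n = 4 each), with overlapping values (adjusted p = 0.691, edgeR).

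FAM208A, which encodes the TASOR subunit of the HUSH silencing complex, was the corepressor gene that fell. It was at 85.7, 86.8, 79.3 and 88.7 CPM in BARD1 siRNA libraries 1 to 4, against 114, 115, 109.6 and 94.6 CPM in control siRNA libraries 1 to 4 (log2 fold change -0.35 with an SE of 0.09, adjusted p = 0.0474 by edgeR). The groups did not overlap, but the call was lost with RLE scaling, upper-quartile scaling and no filter on low counts (edgeR adjusted p = 0.0572, 0.0503 and 0.0791). It was also lost without 6 of the 8 libraries in turn (edgeR adjusted p up to 0.166). CBX5, the gene of heterochromatin protein HP1-alpha, was at 164, 163, 154 and 98.4 CPM in BARD1 siRNA libraries 1 to 4, against 103, 101, 94.97 and 80.99 CPM in control siRNA libraries 1 to 4. BARD1 siRNA library 4 was low and overlapped the controls (log2 fold change 0.61 with an SE of 0.16, adjusted p = 0.0590 by edgeR, and 7.57e-05 with the block). SUV39H1 and CHD3 had log2 fold changes of 0.33 and -0.25 and did not pass (edgeR adjusted p = 0.224 and 0.271).

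A further list named 22 zinc finger genes of chromosome 19 whose symbols do not start with ZNF, of which 14 were tested. By edgeR 1 fell (7.14%, against 3.22% of all genes tested) and 0 rose (1.82%), with a median log2 fold change of 0.21. At an unadjusted p under 0.05, 6 were higher and 1 lower (9.08% and 9.82% of all genes tested). DESeq2 called 4 higher and 1 lower (4.76% and 5.9% of all genes tested). With the block 5 rose and 1 fell (35.7% and 7.14%, against 11.0% and 12.6% of all genes tested). The list was not limited to KRAB genes, and the 5 include ZFP36 (edgeR adjusted p = 0.00215 with the block). The gene that fell was ZBTB7A, encoding a BTB-domain repressor of another zinc finger family, at 86.5 ± 4.29 CPM with BARD1 siRNA and 134 ± 7.79 CPM with control siRNA (SD, n = 4 each), with a log2 fold change of -0.64 (SE 0.08, edgeR adjusted p = 0.00229). ZFP28 averaged 7.16 ± 1.78 CPM with BARD1 siRNA and 4.02 ± 0.560 CPM with control siRNA (SD, n = 4 each), and HKR1 22.9 ± 3.80 CPM with BARD1 siRNA and 16.3 ± 2.77 CPM with control siRNA (SD, n = 4 each). They are KRAB zinc finger genes and, with edgeR adjusted p of 0.0603 and 0.114, passed the test with the replicate block (0.00323 and 0.00139). ZBTB7A, ZFP28 and HKR1 lie outside the naming rule and were chosen after their values were seen.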

How the data were processed

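Polyadenylated RNA of 8 MiaPaCa-2 libraries was sequenced. Read counts per gene were deposited by the authors; the tools fastp, featureCounts and HISAT2 (version 2.0.5) and the builds GRCh37 and hg19 are named per the submitters' processing notes. The sources used here do not give the annotation release. FPKM values were also deposited by the authors. Their deposited comparison gives log2 fold changes with p-values. 8 further per-sample columns were not used, and 22217 rows without a gene, which held 0 reads (0% of counts), were left out.

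The counts were fitted in R (version 4.3.3) with edgeR (version 4.0.16), using filterByExpr, TMM scaling, quasi-likelihood F-test of 4 BARD1 siRNA against 4 control siRNA libraries, two-sided, Benjamini-Hochberg adjustment over 14528 genes, threshold 0.05. DESeq2 (version 1.42.0) was an alternative. Others were RLE and upper-quartile scaling, no filter, the replicate block, each library left out, and both libraries numbered 4 left out. Each SE is implied by the F statistic. The fits were also run on simulated counts, and the outcome is not given here. In these counts same-numbered libraries of both groups shared the same deviations. In the data that pairing rests mostly on the libraries numbered 4, so the run cannot show how the fits perform here. Total counts of 24458665 to 36212716 make 3 counts worth 0.0828 to 0.123 CPM, which covers counting error only. No library pair within a group agreed within sampling noise (chi-square per degree of freedom 6.06 or more).

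Same-numbered libraries deviated together (correlations 0.49, 0.487, 0.596 and 0.856 over 10146 genes with a mean of at least 5 CPM), so the numbers in the labels were taken to pair them. This rests mostly on number 4: unlike numbers among 1 to 3 gave 0.366 to 0.510. The replicate block is given where it changes a result.

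The members, gene lists and naming rule were chosen with earlier results of these data known. Named were BARD1, up to 12 rises and 12 falls by p, 8 more by p with the block, the 6 highest by FPKM, the 3 largest changes each way that did not pass, and 6 corepressors. Sequences are from GENCODE 29 transcripts (GRCh38), 1 per gene, and coordinates from the authors' table (GRCh37). Zinc fingers were counted as cysteine, 2 or 4 residues, cysteine, 12 residues, histidine, 3 to 5 residues and histidine.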

Additional observations from a re-analysis of the deposited data

Results flagged for a closer look

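Dixon's test for a value far from the rest was applied to 74 groups of 4 libraries, for the 36 named genes and the members' share of counts. It marked 5, and about 1 in 20 (3.7 here) would be marked by chance. In each of the 5 the marked library was numbered 4. ZNF575 was highest in BARD1 siRNA library 4, at 1.86 CPM against 0.587 to 0.780 CPM in the other 3. CBX5 was lowest in BARD1 siRNA library 4, at 98.4 CPM against 154 to 164 CPM. ZNF227 was highest in control siRNA library 4, at 9.48 CPM against 9.09 to 9.14 CPM, a small distance. BARD1 was lowest in control siRNA library 4, at 20.8 CPM against 26.9 to 28.0 CPM. The members together took 0.207% of counts in control siRNA library 4, against 0.177% to 0.180% in control libraries 1 to 3.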

How the results depend on the processing

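The members' median log2 fold change was above 0 in every alternative run, and 77.9% to 88.3% of members were above 0 in the fits over all members. An alternative chosen after seeing the data kept members with no shared 50-base window. There 2 of 52 members rose (3.85%, against 1.82% of all genes tested), and the median was 0.20. Across fits that leave out 1 library the median over all members ran from 0.27 to 0.37. Members called higher ran from 0 to 36 and lower from 0 to 1, and all genes called higher from 36 to 1243 and lower from 142 to 1263. Members called higher numbered 5 without a filter on low counts, 41 with the DESeq2 test, 60 with the replicate block and 68 without both libraries numbered 4, where 2 were lower. All genes called higher and lower numbered 265 and 468 in the main comparison (1.82% and 3.22%), and 206 and 397 of 25945 without a filter. They numbered 692 and 857 with DESeq2 (4.76% and 5.9%) and 1595 and 1835 with the replicate block (11.0% and 12.6%). Without both libraries numbered 4 they numbered 2185 and 2243 (15.0% and 15.4%). With upper-quartile scaling 413 were higher and 470 lower, so 46.8% of calls were higher against 36.2%. The cause of these changes was not tested. Of the 13 members called, 5 were called without a filter, 12 with upper-quartile scaling and 13 with the replicate block. No named gene changed direction in these alternatives. BARD1 passed in each, with log2 fold changes of -3.21 to -2.50 without 1 library. Of 9 members with a mean of up to 1 CPM, edgeR called 0 (0.365% of all genes at that level were higher), with 1 higher at an unadjusted p under 0.05 and 0 by DESeq2.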

Other observations

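The heptamers ATACAGA and TACAGAA were more common in the coding sequence of the members than elsewhere: 76 of 196 members held one (38.8%), against 22.3% of the other genes tested. Tested members with one had a median log2 fold change of 0.31 (75 genes, 4 risen), and those without one 0.30 (119 genes, 9 risen). Over all genes tested the medians were -0.03 with one (2727 genes, 46 higher and 199 lower) and 0.01 without (9377 genes, 205 higher and 257 lower). These are values without a test.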
